A study of Mus musculus with 4 samples.

Results

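The heat shock, J-protein and chaperonin genes were examined in mouse regulatory T cells activated with or without engagement of the costimulatory receptor OX40. Members were taken by gene symbol alone: the Hspa, Hspb, Hspd, Hspe, Hsph and Hsp90 genes, the Dnaja, Dnajb and Dnajc genes, the chaperonin genes Tcp1 and Cct2 to Cct8, and Hsf1, Hsf2, Bag1 and Bag3. Symbols marked as pseudogenes and 5 genes of the endoplasmic reticulum (Hspa5, Hsp90b1, Dnajb9, Dnajb11 and Dnajc3) were left out. This gave 73 genes on 100 probes, of 16593 genes with a symbol on the array, and each gene was read from the probe with its highest average signal across the 4 arrays. The rule selects names and not a compartment, so the members also include mitochondrial proteins such as Hspd1, Hspe1 and Hspa9 and proteins of the endoplasmic reticulum such as Dnajc10. Hspa1b, Hsp90ab1 and Hsf1 were not analysed here.

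The OX86 group held 2 arrays of cells cultured overnight with an antibody to CD3 and OX86, an agonist antibody to OX40. The isotype group held 2 arrays of cells cultured overnight with the same anti-CD3 and rat IgG. In both groups the cells were regulatory T cells sorted from spleens of C57Bl/6 mice aged 8 to 12 weeks by a green fluorescent reporter of Foxp3. The labels do not say whether replicates came from separate cultures, animals or pools, so the spread behind each p-value is that of arrays and could be technical. All samples had received anti-CD3, so the comparison concerns what OX86 adds to activation and not activation itself.

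Chaperones bind unfolded proteins and help them fold. HSP70 proteins cycle on and off their clients with ATP, J proteins deliver clients and stimulate that ATP use, and exchange factors such as the HSP110 and BAG proteins reset the cycle. HSP90 finishes the folding of kinases and receptors, the ring-shaped chaperonin CCT folds actin and tubulin, and Hspd1 with Hspe1 forms the chaperonin of mitochondria. Many of these genes are driven by heat shock factors, and activated T cells, which grow and make protein fast, are known to raise many of them.

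Regulatory T-cell markers were present on every array. Foxp3, Il2ra, Ctla4, Tnfrsf4 (OX40 itself), Ikzf2, Cd3e and Cd4 were all detected on all 4 arrays, and their log2 changes, OX86 minus isotype, lay between -0.09 and 0.15. Of the markers of other cells, 3 of 4 B-cell, 0 of 6 myeloid, 2 of 5 NK and CD8 and 2 of 4 erythroid and platelet genes passed the filter on dim probes. Their log2 changes went both ways, from 0.81 for the B-cell gene Ms4a1 to -0.26 for Cd79a and -0.35 for the haemoglobin gene Hba-a1. Ms4a1 was detected on 1 of the isotype arrays, so its change includes a value below detection. Its 95% interval was 0.13 to 1.49, with groups not overlapping (adjusted p = 0.9999 in limma). The part of these markers in the chaperone values was not tested. The arrays had between 11800 and 13682 of 25697 probes detected at p under 0.05, and isotype 2 had the lowest number and the lowest correlations with the other arrays (0.968 to 0.972, against 0.984 to 0.985 for the closest pair of each other array).

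No difference between OX86 and isotype passed the test for any chaperone gene, and members lay on both sides of 0. Of the 73 members, 52 were detected on at least 2 arrays and were tested. Among these, 26 (50%) had a positive and 26 a negative log2 change, where 51.0% of all tested probes were positive, with a median of 0.02, against 0.01 over all 13338 tested probes. Median scaling in place of quantile normalization gave 38 positive and 14 negative changes among members. But it also moved the median of all tested probes to 0.12, and the signs of Bag1, Bag3, Dnajb6, Hsp90aa1 and Hspd1 turned with it. The share of all tested probes with a positive change under that scaling is not given here. The 38 positive changes therefore do not set the members apart from other genes. In limma with Benjamini-Hochberg adjustment over all tested probes, 0 members passed, as did 0.0% of all probes, and the smallest adjusted p among members was 0.9999. Members with an unadjusted p under 0.05 numbered 0, against a background of 3.33%. The groups did not overlap for 10 of the 52 members (19.2%), against 26.9% of all tested probes, so this share was not above the background. The tested members reached from -0.84 (Dnajc28) to 0.52 (Hspa4l). Fewer cells of a type and less RNA per cell cannot be told apart in such bulk samples.

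The precision limits what these values can show. The 95% interval of a member's log2 change reached 0.56 to either side in the median and 0.47 to 0.98 at the extremes. All 52 intervals included 0, and 46 of them lay within a 2-fold change in either direction. The median gap of members between the 2 isotype arrays was 0.33, and the median size of the change between the group means was 0.15. A gap between single arrays carries more noise than a difference between means of 2 arrays, so these sizes are not directly comparable. The gap between the OX86 arrays was 0.20 in the median. Over all tested probes these medians were 0.29 for the isotype gap, 0.22 for the OX86 gap and 0.15 for the change, so the members were close to the whole array here.

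**Figure D1:**
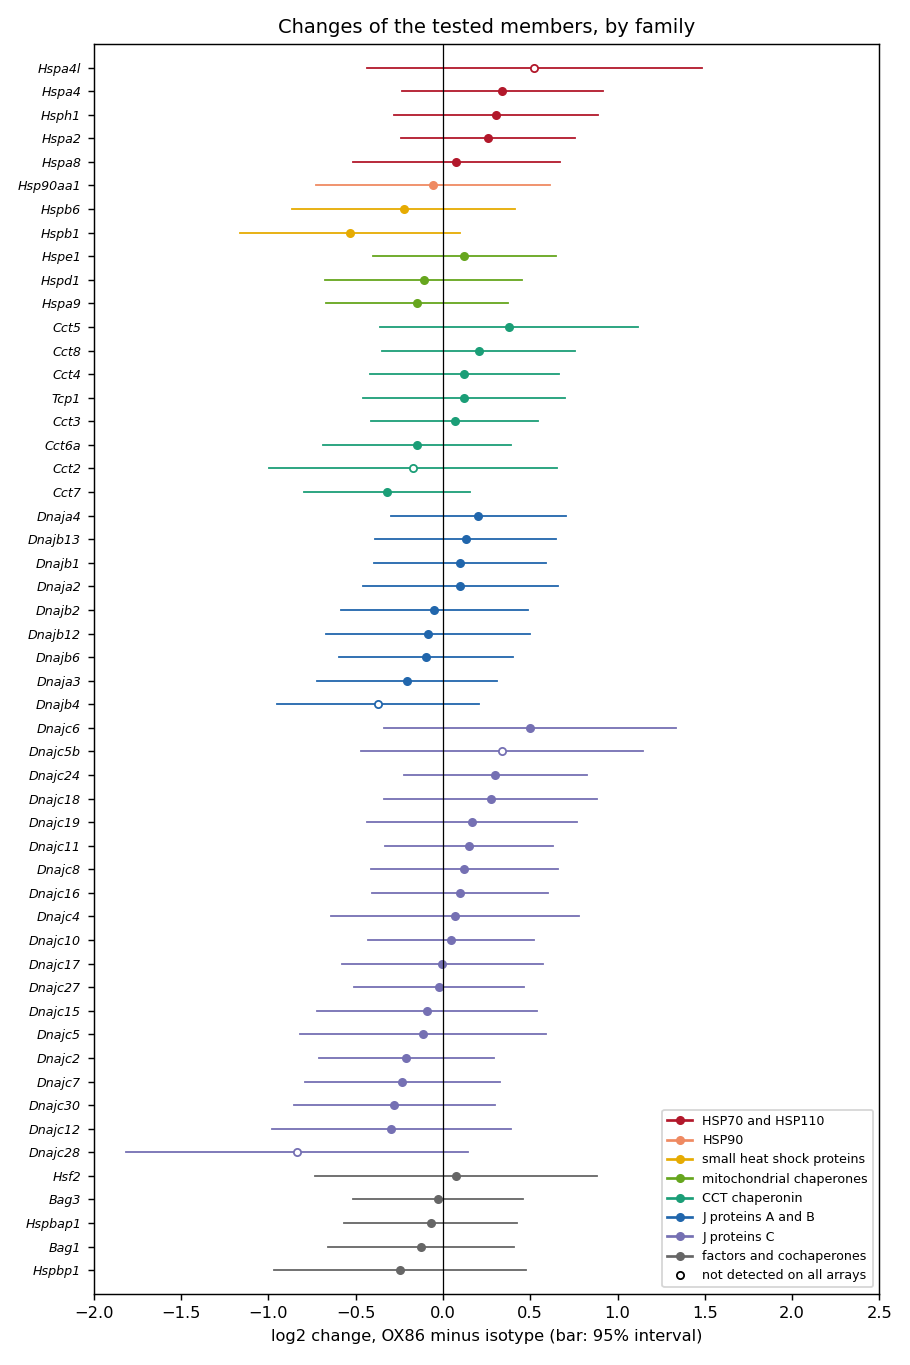
The plot shows the log2 change, OX86 minus isotype, on the horizontal axis for each of the 52 tested members, with 95% intervals as bars and families by colour. Every bar crosses 0, and open circles mark the 5 members not detected on all 4 arrays.

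The remaining 21 members did not pass the filter, and 18 of them were not detected on any array by their brightest probe. The inducible HSP70 gene Hspa1a was among these, with log2 signals of 5.66 and 5.35 on the OX86 arrays and 5.12 and 5.56 on the isotype arrays, all near background. Dnaja1, a J protein that serves HSP70 in the cytosol, was likewise not detected by its brightest probe. The testis-enriched genes Hspa1l and Cct6b and the small heat shock genes Hspb2, Hspb7 and Hspb8 were also left untested. Cct6b, Hspb3 and Dnajc14 were each detected on 1 array. Such probes were not well above background and give only an upper bound on the signal.

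Heat shock factors bind a known DNA element, and its letters were looked for before the members' start sites. The element was searched as GAANNTTC and TTCNNGAA, each of which reads the same on both strands, in the 250 bases before the start sites in the RefSeq table of build GRCm38.p6. Of the 73 members, 60 had an entry, and 16 of these (26.7%) held the letters, against 3932 of 27025 genes in the table (14.5%). Hspa8, Hsp90aa1, Hspa9 and Cct4 were among the members with no entry, so they were not searched. A longer run, in which either form is followed after NN by a further GAA or TTC in alternation, and which therefore contains both short forms, stood before 3 members (5%), against 0.514% of all genes. The sequences shown are those of the long forms and, as examples of the short form, 1 HSP110, 1 small heat shock and 1 CCT gene, with the matching letters in capitals, written 5′ to 3′ on the gene's strand.
Hspd1 (chr1:55088054-55088081, minus strand): gggccTTCCGGAAGGTTCTAGAAcggac
Hspe1 (chr1:55088054-55088081, plus strand): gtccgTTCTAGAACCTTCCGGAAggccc
Dnajb6 (chr5:29735844-29735871, plus strand): agctccgaGAATCTTCCGGAAcgctaga
Hsph1 (chr5:149636352-149636379, minus strand): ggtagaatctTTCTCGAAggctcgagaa
Hspb1 (chr5:135887792-135887819, plus strand): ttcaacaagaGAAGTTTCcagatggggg
Cct5 (chr15:31601863-31601890, minus strand): cagcggccgaTTCCAGAAgctactctgc

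Hspd1 and Hspe1 are read from opposite strands of a single stretch and share the element, 18 bases long, so the 3 members with a long form carry 2 separate sites. The tested members with the short element numbered 12, of which 5 had a positive and 7 a negative log2 change, with a median of -0.06. The 29 tested members with an entry and no such letters had 16 positive and 13 negative changes, with a median of 0.07. A match is a description of letters and not evidence of binding, and these medians were not tested.

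Within the HSP70 and HSP110 genes, all 5 tested members had a positive log2 change, from 0.08 to 0.52 with a median of 0.30, and none passed in limma. The median was 0.14 with no background correction and on the authors' processed values, and 0.17 with no filter on dim probes. It was 0.34 with a gene's tested probes averaged, and 0.41 with median scaling, which also moved the median of all tested probes to 0.12. Hspa8, the constitutive HSP70 of the cytosol, had log2 signals of 15.27 and 15.08 on the OX86 arrays and 15.33 and 14.87 on the isotype arrays. The highest and the lowest value were both isotype arrays, and the log2 change was 0.08 (95% interval -0.52 to 0.67). Hspa4, an HSP110-type exchange factor for HSP70, read 8.57 and 8.65 with OX86 and 8.50 and 8.04 with isotype. Its groups did not overlap, though isotype 1 lay close to the OX86 arrays, and its log2 change was 0.34 (-0.24 to 0.92), or 0.11 without isotype 2 and 0.19 with no background correction. Hsph1, the HSP110 gene whose promoter element is printed above, read 10.74 and 10.54 on OX86 arrays and 10.56 and 10.12 on isotype arrays. Isotype 1 fell between the OX86 arrays, and the log2 change was 0.30 (-0.28 to 0.89), or 0.08 without isotype 2. Hspa2, best known from male germ cells, read 8.05 and 8.27 with OX86 and 7.85 and 7.95 with isotype, without overlap, and had a log2 change of 0.26 (-0.24 to 0.75), or 0.13 with no background correction. For Hspa4l, related to Hspa4, isotype 2 was below detection and the log2 change was 0.52 (-0.44 to 1.48).

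That common sign of the HSP70 and HSP110 genes did not hold without isotype 2, the lowest array for 4 of the 5. Without isotype 2 the median log2 change was 0.08, and the changes of Hspa8 and Hspa4l were -0.15 and -0.04. Those of Hspa4 and Hsph1 stayed positive, at 0.11 and 0.08. Without isotype 1 the median was 0.53, and without OX86 1 it was 0.37, with Hspa8 at -0.02. Hspa2 was the tested member of this family for which isotype 2 was not lowest, and its log2 change was 0.31 without that array.

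Hsp90aa1, the stress-inducible HSP90 gene, had log2 signals of 7.76 and 7.51 in OX86 cells and 7.99 and 7.39 in isotype cells. The isotype arrays enclosed both OX86 arrays, and the log2 change was -0.06 (95% interval -0.73 to 0.61). Of the small heat shock genes, whose products hold unfolded proteins without using ATP, 2 of 6 were tested. Hspb1 read 6.87 and 6.54 on OX86 arrays and 6.995 and 7.48 on isotype arrays. Both OX86 values lay below both isotype values, with a log2 change of -0.53 (-1.16 to 0.10) that did not pass. It was -0.29 without isotype 2 and -0.18 with no background correction, where the median of the 2 tested genes was -0.15, against -0.38. Hspb6 read 8.15 and 8.20 with OX86 and 8.11 and 8.70 with isotype. Isotype 2 stood above the other 3 arrays there, and the change of -0.22 (-0.86 to 0.41) became 0.07 without it.

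The mitochondrial chaperones Hspa9, Hspd1 and Hspe1, which help proteins fold in the matrix, were detected on all 4 arrays. Hspd1 (HSP60) read 11.71 and 11.44 on OX86 arrays and 11.85 and 11.52 on isotype arrays, with a log2 change of -0.11 (95% interval -0.67 to 0.45). Hspe1 (HSP10), which caps the Hspd1 ring and shares its promoter stretch, read 10.56 and 10.60 with OX86 and 10.62 and 10.29 with isotype, a log2 change of 0.12 (-0.40 to 0.65). The groups overlapped for both, and their changes had opposite signs. Hspa9, the mitochondrial HSP70, read 12.10 and 11.91 in OX86 cells and 12.29 and 12.02 in isotype cells, with a log2 change of -0.15 (-0.67 to 0.37). All 3 genes had their highest value on isotype 1.

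Subunits of the CCT chaperonin, which join into a single ring complex, did not share a direction. Of the 8 tested subunit genes, 5 had a positive and 3 a negative log2 change, with a median of 0.09. Tcp1, the alpha subunit, read 11.81 and 11.64 on OX86 arrays and 11.82 and 11.38 on isotype arrays, a log2 change of 0.12 (95% interval -0.46 to 0.70), or -0.10 without isotype 2. Cct8 read 11.77 and 11.84 with OX86 and 11.80 and 11.40 with isotype, a change of 0.21 (-0.35 to 0.76), or 0.0056 without isotype 2. In both genes isotype 1 was close to the OX86 arrays and isotype 2 was apart below them. Cct5 read 7.99 and 8.49 in OX86 cells and 8.16 and 7.56 in isotype cells, and its change of 0.38 (-0.36 to 1.12) was the highest of the complex, with 0.075 without isotype 2. Cct7 read 6.24 and 6.12 on OX86 arrays and 6.46 and 6.54 on isotype arrays. It was the subunit whose groups did not overlap, with a log2 change of -0.32 (-0.80 to 0.16), or -0.078 with no background correction. Cct3, Cct4 and Cct6a had changes of 0.07, 0.12 and -0.15, each with overlapping groups. Cct2 had -0.17 (-0.996 to 0.65), with isotype 2 below detection and isotype 1 the highest array.

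Isotype 2 was the lowest array for 6 of the 8 CCT subunits, and isotype 1 exceeded isotype 2 for 7 of the 8. Without isotype 2 the median log2 change of the subunits was -0.05, and without isotype 1 it was 0.26. Without OX86 1 the median was -0.02, and without OX86 2 it was 0.13. The sign of the median thus differed with the array left out.

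**Figure D2:**
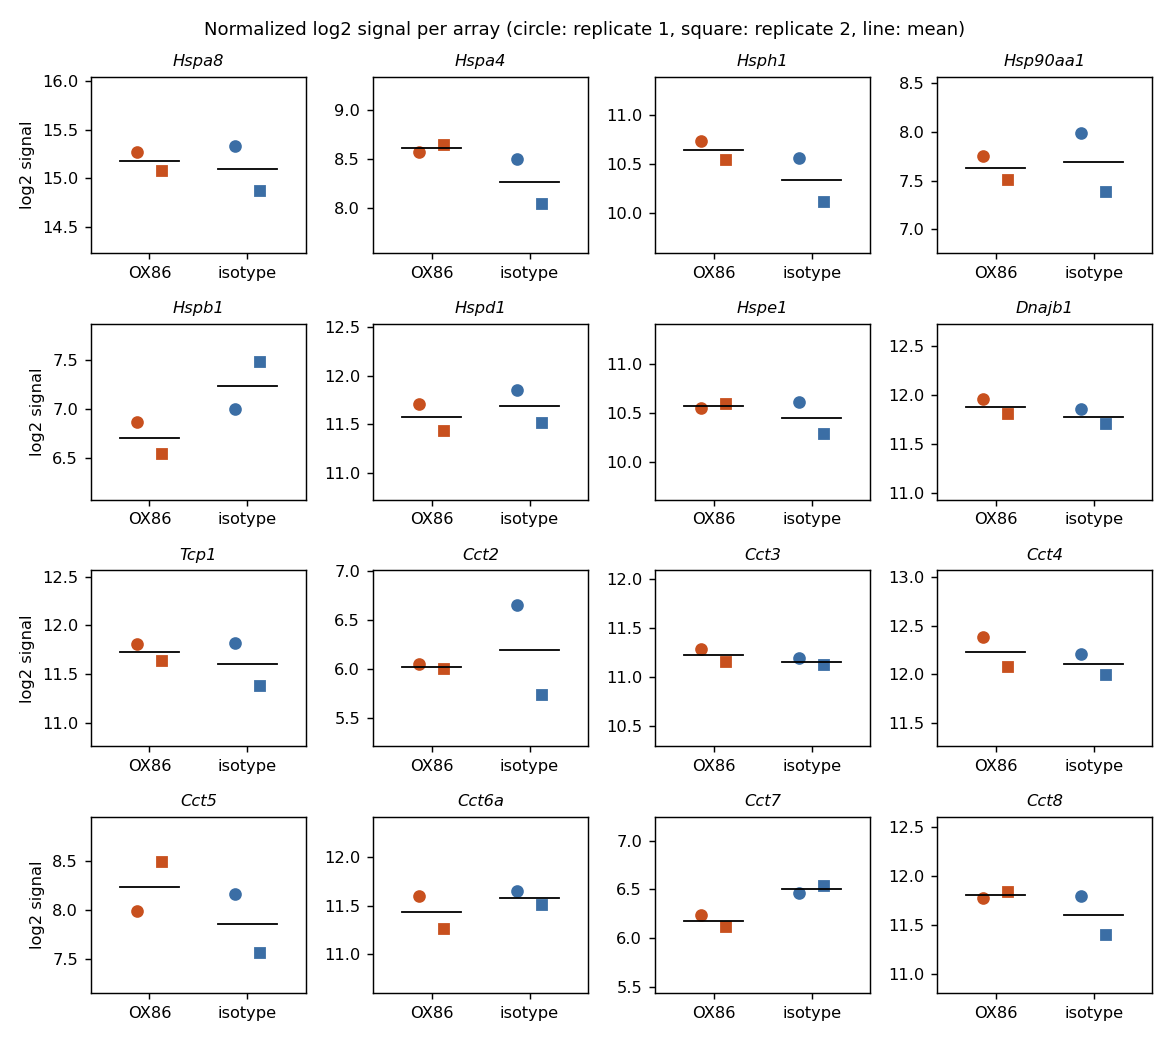
The panels show the normalized log2 signal of 16 chaperone genes on each array, with OX86 left of isotype and a line at each group's mean, all panels spanning the same log2 range. In most panels, such as Hspa8 and Tcp1, isotype 2 (square) lies below isotype 1 (circle), while Hspb1 and Cct7 have isotype 2 highest.

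J proteins of classes A and B, the partners that stimulate HSP70, had 4 positive and 5 negative log2 changes among 9 tested genes, with a median of -0.05 that was 0.09 with median scaling. Dnajb1, the main HSP40 of the cytosol, read 11.96 and 11.80 on OX86 arrays and 11.86 and 11.70 on isotype arrays. The arrays interleaved, and the log2 change was 0.10 (95% interval -0.39 to 0.59). Dnajb6, which keeps aggregation-prone proteins soluble and has the long promoter element, read 9.93 and 9.93 with OX86 and 9.91 and 10.15 with isotype, a change of -0.10 (-0.59 to 0.40). Dnaja4 read 8.54 and 8.79 in OX86 cells and 8.49 and 8.43 in isotype cells, without overlap, and had 0.20 (-0.30 to 0.70). Dnajb4 read 5.53 and 5.82 on OX86 arrays and 6.23 and 5.86 on isotype arrays and was detected on 1 array of each group, so its change of -0.37 (-0.95 to 0.21) includes values below detection, and it was -0.084 with no background correction.

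Class C J proteins, a varied class that carry the J domain into tasks from protein import to vesicle uncoating, had 10 positive and 9 negative log2 changes among 19 tested genes, with a median of 0.05. Dnajc24, needed for the diphthamide modification of elongation factor, read 8.21 and 8.25 in OX86 cells and 8.10 and 7.77 in isotype cells. Its groups did not overlap, and its log2 change was 0.30 (95% interval -0.23 to 0.82), or 0.13 without isotype 2. Dnajc28 read 6.41 and 5.24 on OX86 arrays and 6.69 and 6.63 on isotype arrays. Its change of -0.84 (-1.82 to 0.14) was the lowest of all tested members, but OX86 2 was below detection, and the change was -0.25 without OX86 2 and -0.21 with no background correction. The other class C members ran from -0.30 (Dnajc12) to 0.50 (Dnajc6, the clathrin-uncoating protein auxilin). Dnajc6 had 0.03 without isotype 2, and Dnajc12 had -0.03 without OX86 2.

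Hsf2, a heat shock transcription factor, read 7.08 and 7.95 on OX86 arrays and 7.54 and 7.34 on isotype arrays. The OX86 arrays enclosed both isotype arrays, and the log2 change was 0.07 (95% interval -0.73 to 0.88). Bag1, an exchange factor for HSP70, read 12.25 and 12.29 with OX86 and 12.22 and 12.57 with isotype, a change of -0.12 (-0.66 to 0.41). Bag3, an exchange factor tied to autophagy and itself induced by heat shock, read 10.83 and 10.98 in OX86 cells and 10.87 and 10.997 in isotype cells, a change of -0.03 (-0.51 to 0.46). In each of these 3 genes the groups overlapped. Hspbp1 and Hspbap1, which bind HSP70 and Hspb1, had changes of -0.25 and -0.07. Hspbp1 ran from -0.52 without isotype 2 to 0.03 without isotype 1.

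Variation between arrays was not shared evenly over the arrays. Isotype 2 was the lowest of the 4 arrays for 25 of the 52 tested members (48.1%), against 33.1% of all tested probes, and the highest for 15 (28.8%), against 30.5%. The median departure of members from their own mean was -0.10 on isotype 2, against -0.01 over all tested probes, and 0.05, -0.03 and 0.06 on OX86 1, OX86 2 and isotype 1. By family this median on isotype 2 was -0.37 for the HSP70 and HSP110 genes and -0.22 for CCT, against 0.00 for the class A and B J proteins and 0.46 for the 2 small heat shock genes. Isotype 2 also had the fewest detected probes, 45.9% against 50.2% to 53.2% on the other arrays, and the part of this in the members' values was not tested.

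**Figure D3:**
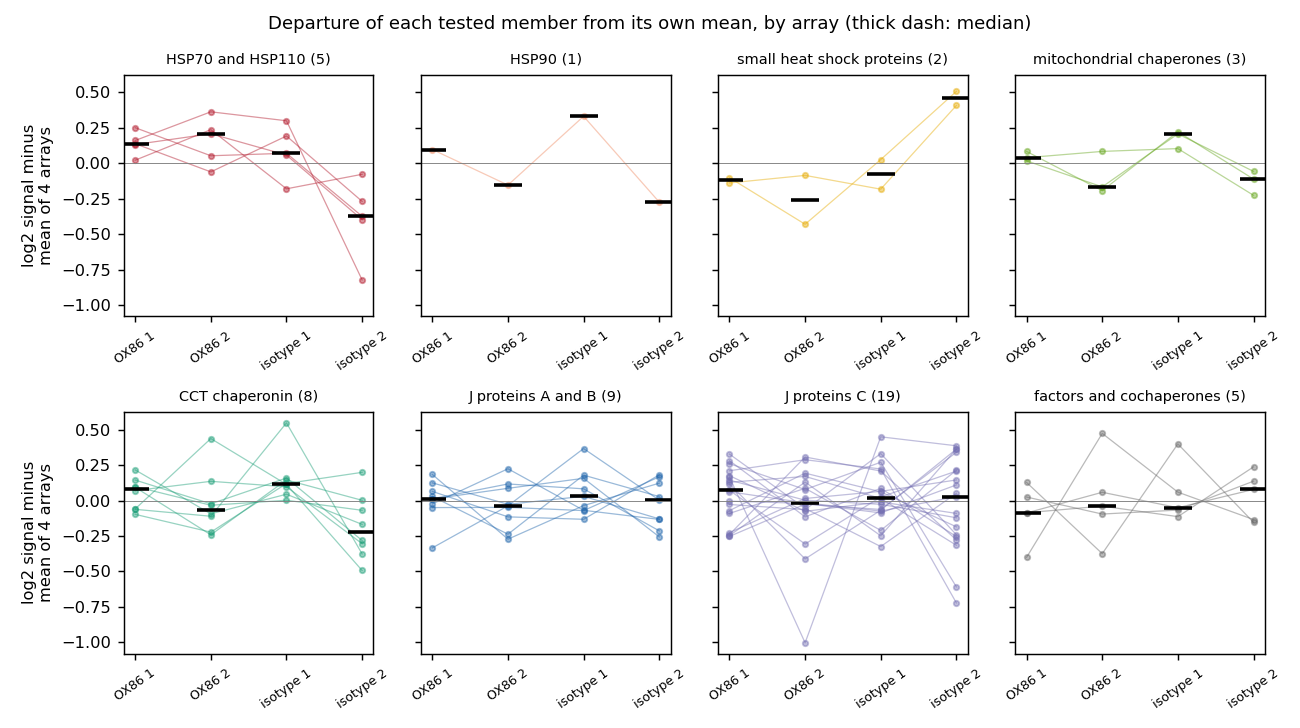
Each line follows a tested member over the 4 arrays as its log2 signal minus its own mean, with families in separate panels and thick dashes at the family median. The dashes for the HSP70 and HSP110 genes and for CCT are lowest on isotype 2, at -0.37 and -0.22, and that of the small heat shock genes is highest there, at 0.46.

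Leaving out isotype 2 turned the sign of the log2 change for 20 of the 52 members and gave 24 positive and 28 negative changes, with a median of -0.01. Leaving out isotype 1, OX86 1 or OX86 2 turned the sign for 6, 7 and 9 members, with medians of 0.12, -0.02 and 0.03. The shares of all tested probes that turned sign are not given here, so these counts do not set the members apart from other genes. In each of these fits a group kept a lone array, which is assumed to vary like the other group, and 0 members passed.

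**Figure D4:**
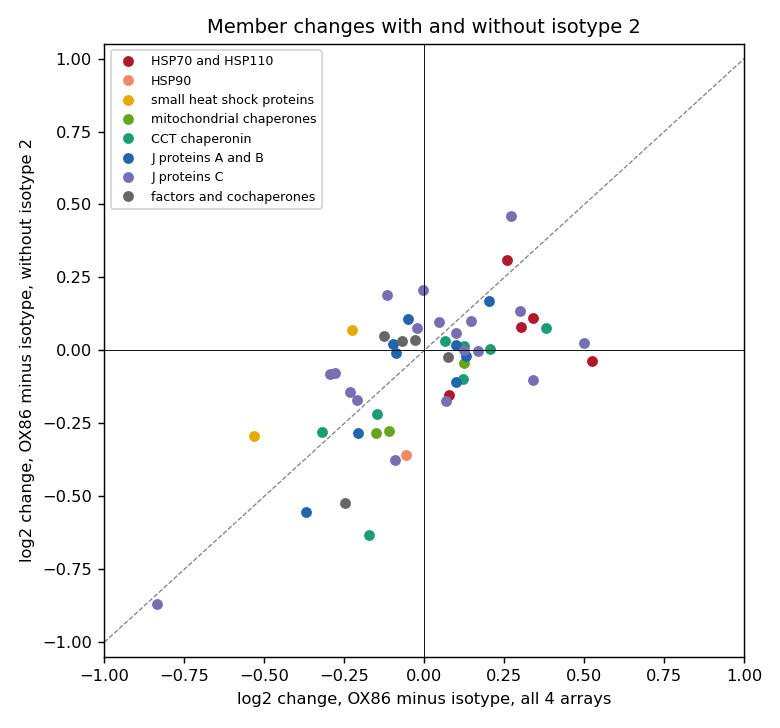
Each point is a tested member, with its log2 change over all 4 arrays on the horizontal axis and its log2 change without isotype 2 on the vertical axis, and a dashed line of equality. The 20 points above 0 on a single axis have turned sign, and most HSP70 and CCT genes lie below the line.

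Other genes of the folding pathway, taken by name, gave a like picture. Of 27 partner genes with a probe, 24 were tested, with 12 positive and 12 negative log2 changes, a median of 0.01 and 0 past the threshold. Sugt1, a cochaperone of HSP90, read 6.43 and 6.57 on OX86 arrays and 6.09 and 5.33 on isotype arrays. It had a log2 change of 0.79 (95% interval 0.06 to 1.52), with isotype 2 below detection, 0.41 without that array, and 0.19 with no background correction. It was the partner with an unadjusted p under 0.05 (4.17% of those tested, against 3.33%), and its adjusted p in limma was 0.9999. Ahsa1, which activates the ATPase of HSP90, read 9.55 and 9.78 with OX86 and 9.26 and 9.36 with isotype, without overlap, a change of 0.35 (-0.15 to 0.85). Chordc1, an HSP90-binding protein, read 10.91 and 10.85 in OX86 cells and 11.19 and 11.24 in isotype cells, without overlap, a change of -0.33 (-0.80 to 0.13). These genes were picked by direction, so their signs do not describe HSP90 cochaperones as a class, and none passed. Nudc, a cochaperone that also acts in mitosis, had -0.14 (-0.63 to 0.36). Of the 5 genes of the endoplasmic reticulum left out of the members, 4 had a probe, with log2 changes of 0.02 for Hspa5, 0.09 for Hsp90b1, 0.14 for Dnajb9 and -0.22 for Dnajc3, and 0 passed.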

How the data were processed

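Illumina bead arrays measured total RNA of 4 samples, all carrying a single slide number. The authors deposited a linear signal intensity and a detection p-value per probe, with no background subtracted, and a second table of processed intensity. The submitters' processing notes name BeadStudio, with no version or settings. At least 99.98% of the authors' processed values lay within 1% of a quantile normalization without background correction, and they served as an alternative.

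Background correction and normalization used neqc (limma 3.58.1, R 4.3.3, offset 16, quantile, log2). Probes with a detection p under 0.05 on at least 2 of 4 arrays were tested, 13338 of 25697. OX86 minus isotype was fitted with lmFit and eBayes, with 2 residual and 3.68 prior degrees of freedom, two-sided, Benjamini-Hochberg over all tested probes, threshold 0.05. Symbols came from the platform annotation. Signals of different probes are not comparable in level, probe sequences were not used, and cross-hybridisation between related genes (such as Hspa8 and its pseudogenes) was not assessed. The number of arrays limits the precision.

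Named genes were a list of 26 core chaperones, of which 3 were not analysed here, and up to 4 members (2 partners) per direction with the smallest p and groups not overlapping. Hspa4l, Hspb6, Dnajc6, Dnajc12, Hspbp1 and Hspbap1 were named after their values were seen. Members and lists were chosen with earlier results of these data known. The fit was also run on simulated data with independent noise on each array. Those data held no outlying array such as isotype 2, and the outcome is not given here.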

Additional observations from a re-analysis of the deposited data

How the results depend on the processing

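The count of members, partners and probes past the threshold was 0 in limma under each alternative fitted on all 4 arrays. In those fits 0.765% (median scaling) to 3.91% (replicate block) of all tested probes had an unadjusted p under 0.05. At most 1 member did so. Median scaling in place of quantile normalization moved the median of all tested probes to 0.118. The median log2 change of members was then 0.145, and those of class A and B J proteins, class C J proteins, factors and cochaperones, and partners were 0.085, 0.187, 0.065 and 0.141, so only 0.027 of the members' median lay above the shift. The signs of Bag1 (0.0068), Bag3 (0.088), Dnajb6 (0.046), Hsp90aa1 (0.057) and Hspd1 (0.045) turned with that scaling and lay below the shift. With probes detected on all 4 arrays the class A and B median was 0.024, and with no filter the median of the small heat shock genes was -0.019, where 4 untested genes joined. Without background correction the log2 change was smaller by over 1.5 times for 28 of the 52 tested members, 18 of them among the 19 with a mean log2 signal under 8 (a limit set after the values were seen), and the median size of the change over all tested probes was 0.070, against 0.145. Averaging a gene's tested probes turned Cct3 (-0.059) and Nudc (0.0068).

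Leaving out a single array gave medians of -0.024 to 0.121 for members, -0.046 to 0.260 for CCT, 0.081 to 0.526 for HSP70 and HSP110, -0.132 to 0.061 for class A and B and -0.016 to 0.084 for class C J proteins, -0.102 to 0.032 for factors and cochaperones, -0.277 to 0.056 for mitochondrial chaperones, -0.646 to -0.111 for small heat shock genes and -0.0070 to 0.086 for partners. It turned 12 of the 30 named genes: Bag1 (-0.300 to 0.051), Bag3 (-0.102 to 0.044), Cct2 (-0.634 to 0.290), Cct4 (-0.032 to 0.278), Cct6a (-0.315 to 0.020), Dnajb6 (-0.216 to 0.022), Hsf2 (-0.363 to 0.511), Hsp90aa1 (-0.360 to 0.245), Hspa8 (-0.154 to 0.307), Hspd1 (-0.277 to 0.056), Hspe1 (-0.042 to 0.288) and Tcp1 (-0.098 to 0.342). The log2 change of 27 of the 30 turned or moved by over 1.5 times, the exceptions being Ahsa1, Cct7 and Chordc1. The cause was not tested.

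The labels do not say whether same-numbered arrays of the groups were paired. Their deviations from the group means correlated at 0.066 over tested probes. With 2 arrays a group the deviations mirror each other, so this value cannot settle pairing. With the replicate block in limma, on fewer residual degrees of freedom, 0 probes passed and 522 had an unadjusted p under 0.05. Log2 changes such as the members' median of 0.021 stayed the same. Array number limits all intervals.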

Other observations

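Some members had several tested probes, 12 in all, and for 3 of them (Cct3, Hspa9 and Dnajb6) the probes differed in sign. The probe of Cct3 not used above had a log2 change of -0.18, against 0.07 for the brightest. Of 64 tested probes of members, 1 had an unadjusted p under 0.05, against 3.33% of all tested probes. It was the dimmer probe of Hspa2, chosen for mention after its values were seen, with log2 signals of 6.62 and 6.43 on OX86 arrays and 5.78 and 5.79 on isotype arrays, detected on 1 of the isotype arrays. Its log2 change was 0.74 (95% interval 0.25 to 1.22), against 0.26 at the brightest probe, and it did not pass after Benjamini-Hochberg adjustment in limma (adjusted p = 0.9999).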
